A study of Mus musculus with 4 samples.

Results

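Platelets of mice carrying a conditional, platelet-specific knockout of HuR were set against platelets of their wild-type littermates by RNA sequencing. The comparison rests on 2 of the 4 libraries of the study, those labelled cKO and WT, which were taken as the study's table for this pair gives them. Both came from male mice of 3 months, and each held the pooled platelets of 7 mice. The other 2 libraries, Young (wild-type males of 3 months) and Old (wild-type males of 24 months), also pools of 7 mice, are shown beside them for reference; their reads come from a separate table, and Young was scaled anew against the library labelled cKO. The labels name neither the Cre line that drives the deletion nor a step that removed other blood cells. The table lists 16467 genes, with 17978384 reads in WT and 17702341 in the library labelled cKO, and 18145612 and 18472149 in Young and Old.

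HuR, the product of Elavl1, is an RNA-binding protein that recognises AU-rich and U-rich elements, most of them in the 3′ untranslated regions (UTRs) of messenger RNAs. It is best known for stabilising short-lived messages and for shaping their translation and splicing. Platelets have no nucleus and inherit their RNA from megakaryocytes, so a change in the parent cell and a change in RNA decay within the platelet both alter a platelet's reads.

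With 1 pool per group there was no replicate and no test between genotypes. Each ratio is of reads per scaled library size, the library labelled cKO over WT, with an exact 95% interval that covers counting error only and leaves out the spread between pools. Genes called risen or fallen met a rule of size: 100 or more reads in 1 of both libraries, and an interval lying wholly beyond 2-fold. By that rule 158 of 6273 genes rose (2.52%) and 107 fell (1.71%), 4.22% in either direction. These shares are the background against which every group below is set. Medians of log2 ratios are over genes with at least 20 reads in both libraries together, and the median of all 11537 such genes was -0.01, with quartiles of -0.42 and 0.42.

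Reads of Elavl1 itself were checked first, and they were not reduced under the cKO label. Elavl1 (ENSMUSG00000040028) lies on the minus strand of mm10 chromosome 8, from 4285382 to 4325413. It had 876 reads in WT against 1481 in the library labelled cKO (Young 621, Old 527). The library labelled cKO thus had the most Elavl1 reads of the 4, at 1.66 times WT (1.53 to 1.81), short of the rule, and 2.62 times Young (2.38 to 2.88), past it. Counts per gene cannot show whether an exon was removed. Whether HuR was lost in the library labelled cKO was therefore not tested. Each direction below belongs to a label and cannot be read as the effect of losing HuR.

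The neighbourhood of Elavl1 was examined for a shift in adjacent genes. Within 1 Mb, 13 genes, Elavl1 among them, had at least 100 reads in the larger library and 0 passed the size rule, where 4.22% of all genes did. Timm44, an import factor of the mitochondrial inner membrane whose start lies 49.5 kb from that of Elavl1, had 49 reads in WT and 132 in the library labelled cKO, a ratio of 2.65 (1.89 to 3.75). Ctxn1, a small membrane protein gene, stood at 1.35 (1.23 to 1.49). Stxbp2, the syntaxin-binding protein needed for platelet granule release, stood at 1.14 (1.07 to 1.21), and the median of the 22 neighbours with at least 20 reads was 0.13.

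**Figure D1:**
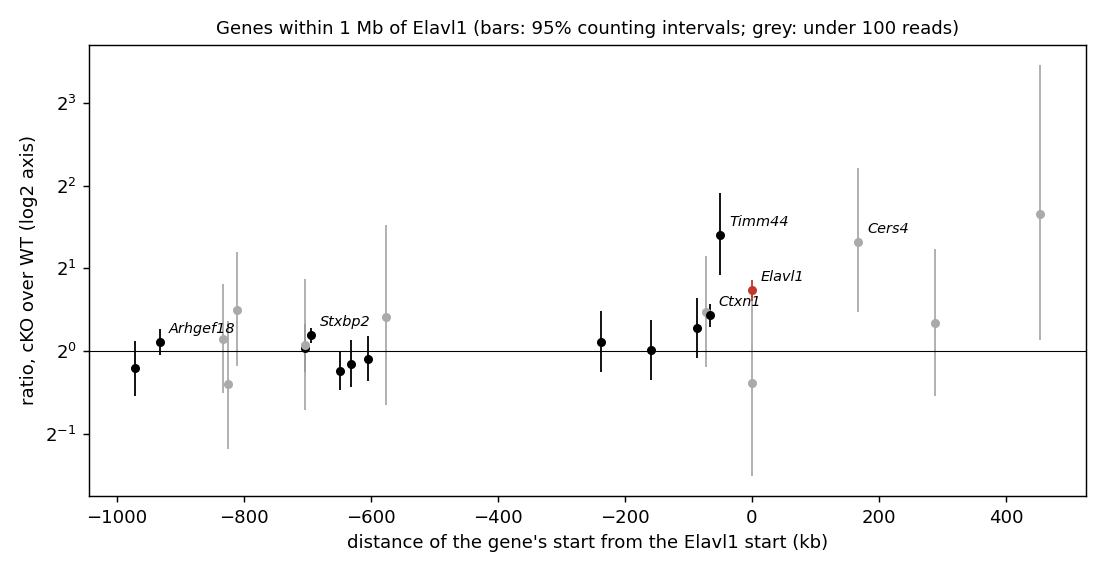
Read ratio (library labelled cKO over WT, log2 axis) for each gene with at least 20 reads within 1 Mb of Elavl1, against the distance of its start from the Elavl1 start in kb. Points are ratios, bars are 95% counting intervals, and grey marks genes with under 100 reads in the larger library. Elavl1 (red) lies at 1.66, and Timm44 at 2.65.

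The genes that rose spanned the range of read levels, and the largest ratios were not in the genes with most reads. Gapdh, the glycolytic dehydrogenase, had 19 reads in WT against 1119 in the library labelled cKO (Young 19, Old 31). Of its sampled 40-base words 82.9% also occur in other annotated transcripts, and with its listed pseudogenes the sum went from 66 to 1242 reads (18.5-fold, 14.4 to 24.1), so the Gapdh value is uncertain. Ephb1, a receptor kinase for ephrins, had 8 reads in WT against 451 in the library labelled cKO (Young 9, Old 0). Both genes had few counted reads in every library but that labelled cKO, which for Gapdh may not reflect its level because of the shared words. The 0 of Ephb1 in Old allows up to 3 reads (0.162 RPM, reads per 1000000 mapped to genes).

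Several less familiar genes were also among the 15 highest. Tspan33, a tetraspanin of red-cell precursors and B cells, went from 42 to 295 reads, and Cdr2 from 397 to 1954. Acsl1, which activates long-chain fatty acids, went from 108 to 549, with 206 in Young and 136 in Old. In each of these 3 the library labelled cKO was the highest of the 4 libraries. Fam220a rose 5.12-fold, but all of its sampled words are shared with other transcripts, which leaves it uncertain, and it did not pass against Young.

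Genes with many reads were also among those that changed. Of 314 genes with at least 10000 reads in 1 of the 2 libraries, 13 rose and 10 fell, beside 2.52% and 1.71% of all tested genes. Actg1, cytoplasmic gamma actin, had 81285 reads in WT against 184462 in the library labelled cKO (Young 65556, Old 71359), and 56.2% of its words are shared with other transcripts. Plek (pleckstrin, the main protein kinase C substrate of platelets) had 191069 reads in WT against 87467 in the library labelled cKO (Young 162686, Old 197347). For both genes the library labelled cKO lay outside the range of the other 3, although Plek passed neither after adjustment for GC content nor against Young (both described below).

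Spread over all genes, the losses summed to 142800 RPM and were more concentrated than the gains. Tmsb4x, the actin-sequestering thymosin and the gene with most reads, gave 15.4% of all losses by itself, with 1232564 reads in WT and 823505 in the library labelled cKO. The 10 largest losses, which also took in B2m, Plek, Gng11, Ppbp, Rgs18, Thbs1, Nptn, Ctla2a and Tsc22d1, made up 40.7%. The 10 largest gains (Actg1, Hba-a1, Cd9, Fth1, Nrgn, Itga2b, Aldh2, Gas2l1, Myl9 and Zyx) made up 27.2% of all gains. Tmsb4x, at 0.656 times WT, did not pass the rule, and Old had 844437 reads of it, close to the library labelled cKO.

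**Figure D2:**
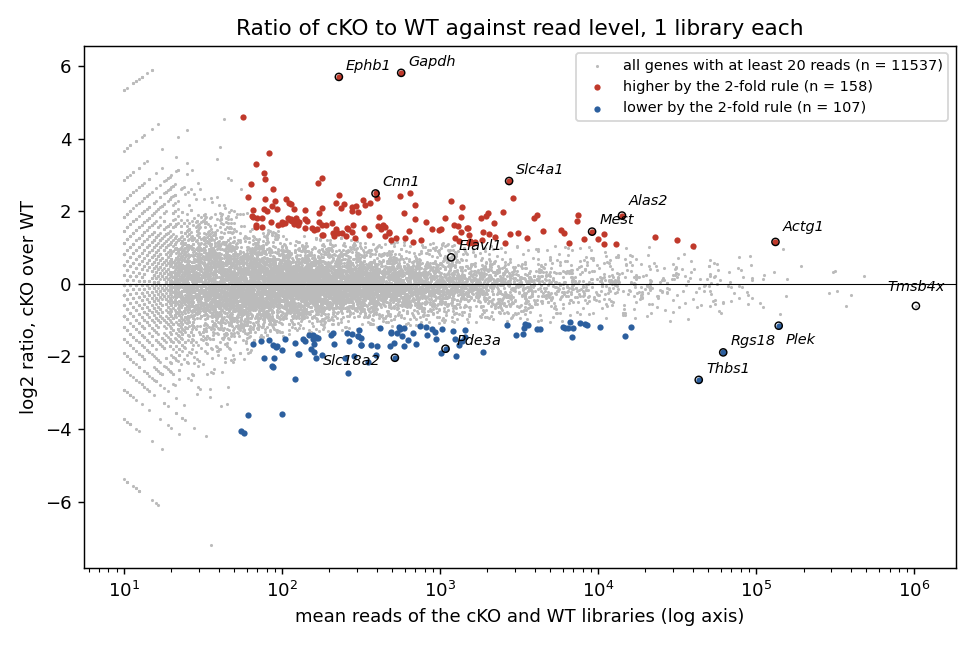
The log2 ratio (library labelled cKO over WT) for 11537 genes against the mean reads of both libraries (log axis). Red points mark the 158 genes that rose, blue points the 107 that fell, and circles the named genes. The cloud narrows with read level and stays centred near 0, while Thbs1, Rgs18 and Plek lie below it at high read levels.

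The ratio followed the base composition of the messenger RNA. Over deciles of GC content the median log2 ratio rose at every step, from -0.31 in the lowest decile (32.8% to 41.8% GC) to 0.40 in the highest (58.0% to 72.9%). In the lowest decile 1 of 596 genes rose and 25 fell, and in the highest 40 of 511 rose and 0 fell. Across 10343 protein-coding genes Spearman's rho between GC content and ratio was 0.32, a description over genes that share 2 libraries and are not independent. The gradient was present in each quartile of read level, with medians from -0.26 to -0.39 in the lowest decile and 0.33 to 0.50 in the highest.

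Other pairs of libraries were set side by side, and the steepest gradients were in the pairs that include WT. Centred on each pair's own median, the lowest and highest deciles stood at -0.29 and 0.42 for the library labelled cKO over WT. The same deciles stood at -0.02 and 0.05 for the library labelled cKO over Young, at 0.30 and -0.33 for WT over Young, at -0.16 and 0.13 for Old over Young and at -0.46 and 0.47 for Old over WT. The mean GC content weighted by reads was 49.3% in WT against 50.4% in the library labelled cKO (Young 50.2%, Old 50.6%). These pairs share libraries, so they are not independent of each other. Whether the low GC content of WT comes from its RNA or its library preparation was not tested.

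The genes the results turn on are therefore also given, where it changes the call, after subtraction of the median of its GC bin (20 bins) and against Young in place of WT. After GC adjustment 94 of 5909 genes rose (1.59%) and 67 fell (1.13%). Of the 126 genes that rose and the 84 that fell and had a GC value, 89 and 55 passed again. Against Young, 133 of 6428 genes were higher (2.07%) and 51 lower (0.793%). The comparisons with WT and Young share the library labelled cKO.

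**Figure D3:**
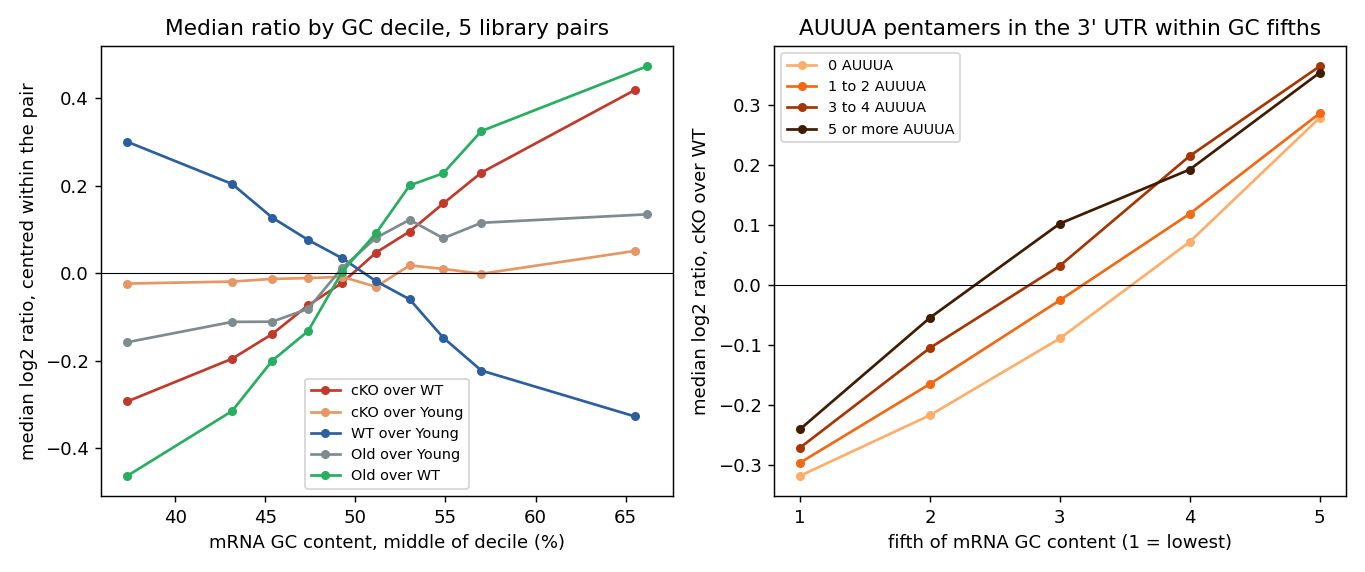
Left, the median log2 ratio in each decile of mRNA GC content (x axis, %), centred within each of 5 pairs of libraries. From the lowest to the highest decile the line goes from -0.29 to 0.42 for the library labelled cKO over WT and from -0.02 to 0.05 over Young. Right, the median log2 ratio (library labelled cKO over WT) in quintiles of GC content, with 1 line per number of AUUUA pentamers in the 3′ UTR; lines rise together from left to right.

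AU-rich elements were read from the annotated 3′ UTRs because HuR binds them. The stretches below were cut from the mature messages (GENCODE M21, build GRCm38, printed as DNA), with each ATTTA pentamer (AUUUA in the RNA) in capitals. They show pentamers in 4 messages that fell, 1 that rose and that of Elavl1 itself. The windows lie at chr2:118126815-118126844 (plus strand), chr1:144753443-144753472 (minus), chr6:141504255-141504284 (plus), chr19:59294388-59294417 (plus), chr17:29099487-29099516 (plus) and chr8:4285777-4285806 (minus), in the order printed.
Thbs1: gatatgctATTTAaataATTTAtcaggaaa
Rgs18: agcaaagcaatgtATTTAgataactgtata
Pde3a: acATTTAataaagtacatgaagaATTTAag
Slc18a2: tgaatgtgttgttATTTAacttgaaactaa
Cdkn1a: tatttgtgttttaATTTAaacgtctcctgt
Elavl1: ttATTTATTTATTTATTTAtttttATTTAt

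The whole 3′ UTRs held 6 pentamers in 2104 bases for Thbs1, 5 in 1129 for Rgs18 and 18 in 8555 for Pde3a. Slc18a2 had 4 in 2096 bases, Cdkn1a 4 in 1334 and Elavl1 17 in 4218. A pentamer is a letter match and no measured binding site, and messages in both directions carried it.

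Genes with more pentamers had lower median ratios until genes were compared within quintiles of GC content. The median log2 ratio was 0.07 with no pentamer, 0.02 with 1 to 2, -0.03 with 3 to 4 and -0.11 with 5 or more. Of the 1385 genes tested with 5 or more, 10 rose and 42 fell. Pentamer-rich messages are also GC-poor, with rho of -0.48 between GC content and pentamers per kb. Within quintile 3 of GC content the order was the opposite, at -0.09, -0.03, 0.03 and 0.10. In quintile 2 the medians were -0.22, -0.17, -0.11 and -0.05, and in quintile 1 -0.32, -0.30, -0.27 and -0.24. In quintiles 4 and 5 the medians with no pentamer were also the lowest, 0.07 in quintile 4 and 0.28 in quintile 5, against 0.19 and 0.35 with 5 or more. Median GC content within quintile 1 was 42.8%, 42.5%, 42.3% and 41.4% from no pentamer to 5 or more, so it was not fully held fixed. Falls in quintile 1 were still more common with 3 or more pentamers, the classes of lower GC content. There 1 of 56 tested genes fell with no pentamer and 3 of 207 with 1 to 2. With 3 to 4, 10 of 208 fell, and with 5 or more 30 of 719 fell and 1 rose. In quintile 2 the falls were 2 of 165, 3 of 349, 3 of 279 and 9 of 409, and 7 of the last class rose. In quintile 5, 2 of 620 fell with no pentamer and 0 of 11 with 5 or more. Genes that rose had a median GC content of 55.0% and those that fell 43.9%, with 1.01 and 2.55 pentamers per kb of 3′ UTR.

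Messages reported as HuR targets did not move as a group. Of 20 tested members, Cdkn1a rose, Thbs1 fell and 18 did neither, and the median of the 34 with at least 20 reads was -0.15 (-0.04 after GC adjustment, 0.07 against Young). Cdkn1a, the p21 inhibitor of cyclin-dependent kinases, had 30 reads in WT against 150 in the library labelled cKO (Young 71, Old 84), and did not pass against Young (2.32, 1.74 to 3.12). The proteins that bind AU-rich elements beside HuR gave 0 of 24 passing and a median of 0.11. Celf2 had 4668 reads in WT and 2415 in the library labelled cKO, Cpeb4 1050 and 484, and Pcbp1, a poly(C)-binding protein, 702 and 1545, with ratios of 0.508, 0.453 and 2.16. Old had 2589 Celf2 reads, close to the library labelled cKO. Of 38 tested genes of the mRNA decay machinery 0 passed (median -0.02), and of 52 splicing factors 0 passed (median 0.03).

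By gene length, the median log2 ratio went from -0.07 in the shortest decile of exonic length to 0.00 in the longest, with rho of 0.03 over 10367 protein-coding genes. That difference of 0.08 became 0.23 after GC adjustment. The deciles of genomic span ran the other way, from 0.04 to -0.01. Coding length showed a small rise, from -0.14 in the shortest decile to 0.09 in the longest (rho 0.11). Higher genes were more common among short genes, with 16, 21 and 19 of 495, 507 and 550 tested in the 3 shortest deciles and 8 of 736 in the longest. The median exonic length was 3540 bases for genes that rose, 4083 for those that fell and 5035 for those that did neither.

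The spread narrowed with read level while the medians stayed near 0. The medians of the 10 read-level deciles lay between -0.05 and 0.05. The quartiles narrowed from -0.82 and 0.93 in the lowest decile to -0.33 and 0.30 in the highest, where 41 of 1154 genes rose and 26 fell.

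By biotype, protein-coding genes held 96.6% of reads in WT (Wilson 95% interval 96.625 to 96.642) and 97.1% in the library labelled cKO (97.098 to 97.113), and 126 of 5917 rose and 85 fell. Long intergenic RNAs went from 1.78% (1.774 to 1.786) to 1.53% (1.529 to 1.540) of reads, and of 83 tested 8 rose and 6 fell. Their largest changes were in unnamed loci. Gm12536 had 4 reads in WT against 110 in the library labelled cKO (Young 47, Old 61), which puts WT apart from the other 3 libraries, and it did not pass against Young. Gm10076 had 442, 81, 643 and 284 reads in the same order and was 5.55-fold lower (4.37 to 7.13), with the library labelled cKO the lowest. Neat1, the scaffold RNA of nuclear paraspeckles, had 335, 939, 313 and 732 reads and rose 2.75-fold (2.43 to 3.13).

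Antisense genes had 6 that rose and 2 that fell of 44 tested. Bcas3os1 fell from 569 to 131 reads, 4.42-fold (3.65 to 5.39), with 460 in Young and 264 in Old. No source used here says whether counting used strand, so reads of an antisense gene cannot be told apart from those of its partner. Processed pseudogenes gave 6 that rose and 6 that fell of 120, and they share sequence with their parent genes. Genes were flagged as possibly sharing reads with copies if at least 20% of their sampled words occur in other transcripts. Pseudogenes and immunoglobulin and T cell receptor genes were flagged too, as were histone, MHC, ribosomal protein and globin genes by symbol. The flag covered 21 of 158 that rose and 16 of 107 that fell, against 660 of 6273 tested.

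Among the remaining biotypes the direction differed by class. The 2 mitochondrial ribosomal RNAs went from 128015 to 84483 reads, a ratio of 0.648 (0.643 to 0.654), and Old had the most of mt-Rnr1, 34056 reads against 22312 in WT, 11784 in the library labelled cKO and 11158 in Young. The constant-region genes of immunoglobulins had a summed ratio of 0.715 (0.692 to 0.740), and none of the 10 measured was above 1. Small nuclear RNAs had a summed ratio of 2.13 (1.74 to 2.62), on 142 reads in WT and 308 in the library labelled cKO. Only 2 of their genes had at least 20 reads. The plasma cell list, which holds immunoglobulin genes, had a median of -0.45 against WT and 0.07 against Young. Peg13, an imprinted noncoding RNA, fell 2.14-fold (2.03 to 2.25), with 4714 reads in WT against 2245 in the library labelled cKO (Young 5411, Old 6775).

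Chromosome medians are given with the GC content of their genes. Chromosome 7, whose genes had a median GC content of 53.5%, had the highest median at 0.16. Of its 447 tested genes 20 rose (4.47%) and 3 fell (0.671%), beside 2.52% and 1.71% of all tested genes. Chromosome 8, at 52.5% GC, had a median of 0.10, and 14 of 329 rose (4.26%) and 5 fell. The X chromosome, at 46.0% GC, had a median of -0.15, and chromosome 1, at 47.5%, of -0.12. The mitochondrial genome, at 37.4% GC, had a median of -0.35. Chromosomes 17, 11 and 15 had 53.3%, 52.4% and 52.4% GC and medians of 0.08, 0.02 and 0.01. Whether GC content accounts for the chromosome medians was not tested.

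Function was described with lists of platelet, blood cell and housekeeping genes, chosen with earlier results of these data known. Adhesion and agonist receptors, which sense collagen, thrombin, ADP and von Willebrand factor, fell in 2 of 29 tested members and rose in 0, with a median of -0.21 (-0.29 after GC adjustment, -0.07 against Young). Itga2, the collagen-binding integrin chain, had 6034 reads in WT against 2572 in the library labelled cKO (Young 6334, Old 12991). F2rl2, the thrombin cofactor receptor of mouse platelets, had 9677, 4232, 8659 and 10962. For both the library labelled cKO was the lowest of the 4, but Itga2 passed against Young and not after GC adjustment, and F2rl2 the reverse. Selp (P-selectin), at 1419 and 702 reads, missed the rule at 2.06-fold lower (1.88 to 2.26).

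Signalling downstream of the receptors showed single genes instead of a group shift. Of 37 tested genes of the ITAM, ITIM and G-protein list, Gnas rose and Rgs18 fell, with a median of -0.04. Rgs18 shortens G-protein signals in resting platelets and had 97351 reads in WT against 26767 in the library labelled cKO (Young 58995, Old 44090). WT was the highest and the library labelled cKO the lowest; it stood 3.70-fold lower than WT (3.65 to 3.75), 2.95-fold after GC adjustment, and 2.01-fold lower than Young (1.98 to 2.04), the last short of the rule. Gnas, the stimulatory G-protein subunit, had 2062, 5005, 4248 and 5649 reads, and WT was the library that stood apart; it did not pass after GC adjustment or against Young. Gng11, the platelet G-protein gamma subunit, had a ratio of 0.567, and 0 of 27 calcium and Rap1 pathway genes passed.

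Cyclic nucleotides hold platelets at rest, and 3 of 13 tested genes of that pathway fell while 0 rose. Pde3a, the phosphodiesterase that breaks down cyclic AMP in platelets, had 1677 reads in WT against 494 in the library labelled cKO (Young 1421, Old 2028). Its fall was 3.46-fold (3.12 to 3.83) against WT, 3.00-fold after GC adjustment and 2.62-fold against Young. The nitric oxide receptor, soluble guanylate cyclase, is a dimer of the products of Gucy1a1 and Gucy1b1, neighbouring genes on chromosome 3. Gucy1a1 had 438, 165, 376 and 582 reads and Gucy1b1 8934, 4379, 8116 and 10301, both lowest in the library labelled cKO. Gucy1a1 fell 2.70-fold (2.25 to 3.25) and Gucy1b1 2.08-fold (2.00 to 2.15); Gucy1a1 passed after GC adjustment but not against Young, and Gucy1b1 passed neither. Pde3a and both subunits of the cyclase were thus lowest in the same library. Vasp, a shared target of both kinases, had a ratio of 1.53, and Prkar2b, a regulatory subunit of protein kinase A, of 0.602. The pathway's median was 0.15.

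Alpha granules store adhesive proteins and growth factors, and 2 of 24 tested cargo genes fell while 0 rose. Thbs1, encoding thrombospondin, had 74741 reads in WT against 12152 in the library labelled cKO (Young 79517, Old 91887). The 3 other libraries lay near each other. The library labelled cKO stood 6.26-fold (6.14 to 6.38) below WT, 6.15-fold after GC adjustment and 5.97-fold below Young. Angpt1, the Tie2 ligand that steadies vessel walls, had 10034, 3693, 7239 and 9025 reads and fell 2.77-fold (2.66 to 2.87), but did not pass against Young. The platelet chemokines Pf4 and Ppbp had ratios of 0.690 and 0.802.

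Dense granules store serotonin and nucleotides, and 2 of 21 tested genes fell while 0 rose. Slc18a2 loads serotonin into the granule and had 832 reads in WT against 206 in the library labelled cKO (Young 845, Old 1983). It fell 4.11-fold (3.53 to 4.81), and passed after GC adjustment and against Young. Slc6a4, which takes serotonin into the platelet from plasma, had a ratio of 0.837 and did not pass. Rab27b, a GTPase of dense granule docking, had 10394, 5018, 8661 and 11567 reads and fell 2.11-fold (2.04 to 2.18), but passed neither after GC adjustment nor against Young. Of 28 tested secretion SNAREs and tethers 0 passed (median -0.08).

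In the cytoskeleton Actg1 was the sole gene past the rule among 46 tested actin genes (median 0.05), and Actb, the other cytoplasmic actin, had a ratio of 1.48. Tubulins and microtubule motors had a median of -0.31 (-0.32 after GC adjustment, -0.08 against Young), with 2 of 27 lower. Tuba1a had 2110 reads in WT against 785 in the library labelled cKO (Young 1710, Old 2500), but shares 74.2% of its words; Tuba1a, Tuba1b and Tuba1c together had a ratio of 0.536 (0.507 to 0.568), and Tuba1a did not pass against Young. Tubb1, the beta tubulin of the platelet's marginal band, had 49218, 25417, 50582 and 105291 reads and a ratio of 0.507, which passed the rule only after GC adjustment. In all 3 reference libraries the marginal band gene was higher than in the library labelled cKO.

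Contractile genes named for smooth muscle leaned the other way. All 17 with at least 20 reads had a ratio above 1 and the median was 0.55 (0.46 after GC adjustment, 0.81 against Young), yet 1 of 10 tested passed. That gene was Cnn1, calponin, with 116 reads in WT against 667 in the library labelled cKO (Young 76, Old 212), a rise of 5.65-fold (4.63 to 6.94) over WT and 9.63-fold over Young. Tpm2, a tropomyosin, had a ratio of 1.95, and Mylk, the kinase of myosin light chain, of 1.46. Col18a1, a basement membrane collagen, rose 7.59-fold (4.63 to 13.2) on 139 reads against 18, but did not pass against Young (57 reads) and was below Old (283).

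**Figure D4:**
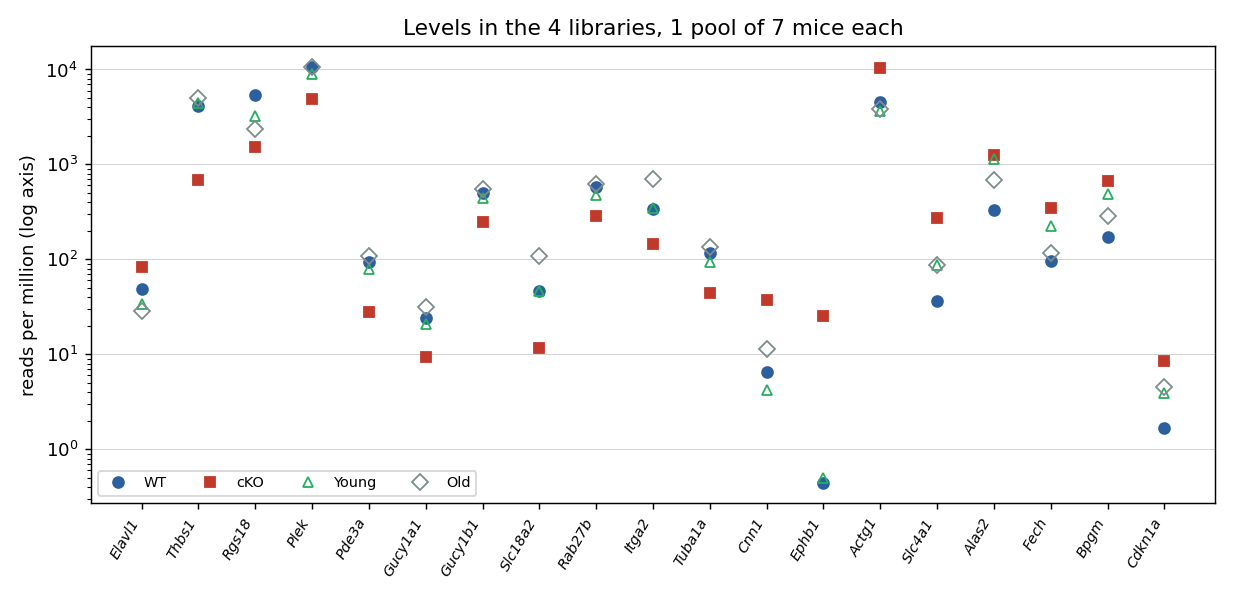
RPM (log axis) of named genes in the 4 libraries, 1 pool of 7 mice each; filled symbols are WT and the library labelled cKO, open symbols Young and Old, and Ephb1 had 0 reads in Old and is not drawn there. For Thbs1, Pde3a and Slc18a2 the 3 other libraries lie above the library labelled cKO. For Alas2 the library labelled cKO lies near Young and WT stands apart.

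Red-cell genes formed the group with most members past the rule. Of 30 tested late erythroid and reticulocyte genes 15 rose (against 2.52% of all genes) and 0 fell, with a median of 1.13. Among them were Bpgm, Car2, Dcaf12, E2f2, Hagh, Prdx2, Rsad2, Slc25a39, Tent5c, Tmcc2, Trim10, Tspo2, Ube2l6 and Ypel3. After GC adjustment 14 were higher and against Young 6, with medians of 1.00 and 0.63. The late erythroid list was chosen with earlier results of these data known, so its counts are descriptions. Its member Rsad2 is also on the list of interferon-stimulated genes. In pooled blood cells, fewer cells of a type cannot be told apart from less RNA per cell. Of 17 tested red-cell membrane and skeleton genes 5 rose, among them Slc4a1, Ank1 and Epb42, and Cd44, an adhesion receptor that is not specific to red cells, fell (though not after GC adjustment or against Young). Of 13 tested globin and haem synthesis genes 5 rose (Alas2, Fech, Slc25a37, Hbb-bt and Hbb-bs) and 1 fell (Hba-a2). The globin copies share reads: Hba-a1 and Hba-a2 together stood at 1.66 (1.65 to 1.67) and Hbb-bs and Hbb-bt together at 2.50 (2.45 to 2.54).

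Haem and globin genes did not pass against Young. Alas2, the first enzyme of haem synthesis in red cells, had 5972 reads in WT against 22424 in the library labelled cKO (Young 20867, Old 12520). Fech, the last enzyme of that pathway, had 1721, 6215, 4060 and 2166, and Hbb-bs 13163, 32969, 43250 and 22286. For Alas2 and Fech, which rose 3.69-fold and 3.55-fold, Young lay nearer the library labelled cKO than WT did, and Hbb-bs was highest in Young. Old lay close to WT for Fech. None of the 5 that rose over WT passed against Young, and the median of the globin and haem list fell from 0.70 to 0.13 with that reference.

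Of the membrane list 5 genes were higher against Young and 0 lower. Slc4a1, the anion exchanger of the red-cell membrane, had 663 reads in WT against 4820 in the library labelled cKO (Young 1569, Old 1611). Epb42, which ties the exchanger to the skeleton, had 88, 384, 153 and 96 in WT, the library labelled cKO, Young and Old. Car2, a cytosolic carbonic anhydrase of the late erythroid list, had 1001, 4048, 1161 and 1152. In these 3 genes the library labelled cKO was above all 3 others; Slc4a1 stood 7.14-fold above WT and 3.37-fold above Young, and Car2 3.97-fold and 3.82-fold. The membrane list kept a median of 0.71 against Young. Rsad2, an interferon-induced enzyme placed on the late erythroid list, had 1733, 6538, 2721 and 1605 reads.

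Promoters of 2 erythroid genes that rose are printed because red-cell genes share sites for GATA factors. They run from 250 bases before to 50 after the start (RefSeq, GRCm38.p6): Alas2 at chrX:150547167-150547466 (plus strand) and Epb42 at chr2:121036828-121037127 (minus strand). Capitals mark the match to AGATAA or TGATAA, searched on both strands, here as the reverse complement.
Alas2: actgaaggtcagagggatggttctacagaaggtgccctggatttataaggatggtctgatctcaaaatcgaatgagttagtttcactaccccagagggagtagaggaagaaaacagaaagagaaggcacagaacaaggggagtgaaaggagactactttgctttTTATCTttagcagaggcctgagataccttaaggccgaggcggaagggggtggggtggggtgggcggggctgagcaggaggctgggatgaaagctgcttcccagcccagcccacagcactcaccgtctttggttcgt
Epb42: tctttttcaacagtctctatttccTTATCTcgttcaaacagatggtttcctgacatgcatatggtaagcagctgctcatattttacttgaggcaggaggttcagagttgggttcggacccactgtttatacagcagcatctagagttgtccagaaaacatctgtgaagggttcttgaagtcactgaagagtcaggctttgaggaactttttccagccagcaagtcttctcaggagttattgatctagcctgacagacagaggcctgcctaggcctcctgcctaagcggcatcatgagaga

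Such a match was present in 9.8% of 8225 promoters of measured protein-coding genes, in 10 of 91 promoters of genes that rose, in 17.4% of 69 of genes that fell and in 24.2% of 62 of the 3 erythroid lists. The median GC content of these promoters was 61.0%, 62.0%, 58.0% and 58.8% in the same order. Whether the shares follow base composition was not tested. A match is a string of letters and no measured site.

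Markers of other blood cells were read in the same 2 libraries. All 14 erythroid markers were above 1 and 10 rose, and their summed level was 7086 RPM in WT against 15640 in the library labelled cKO (Young 20450, Old 10170). The erythroid marker set leaves out Hba-a2, which fell and shares reads with Hba-a1. In the erythroid lists some measured genes were below 1. These were 6 of 20 for globins and haem, 6 of 25 for the membrane list and 5 of 36 for late erythroid genes. The 9 platelet markers gave 0 calls and sums of 52740, 48690, 49060 and 59120 RPM. Neutrophil markers summed to 52.4 RPM in WT against 28.4 in the library labelled cKO (Young 23.9, Old 636), and 6 of 10 (Ly6g, Camp, Ngp, Ltf, Mpo and Elane) had 0 reads in both WT and the library labelled cKO, which allows up to 0.167 and 0.169 RPM (3 reads). B cell markers summed to 297 and 286 RPM in WT and the library labelled cKO, plasma cell markers to 317 and 233, and monocyte markers to 15.5 and 11.1. T and NK markers summed to 30.2 and 25.1, with Gzma lower, though not after GC adjustment. MHC class II markers summed to 428 and 412 RPM, with Xcr1 lower, though not after GC adjustment or against Young. Basophil markers summed to 0.445 and 0.565, with Mcpt8, Fcer1a and Prss34 at 0 in both. Endothelial markers, which include genes shared with platelets such as von Willebrand factor, summed to 6906 and 8142. The part of red cells or reticulocytes in the erythroid values was not tested.

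**Figure D5:**
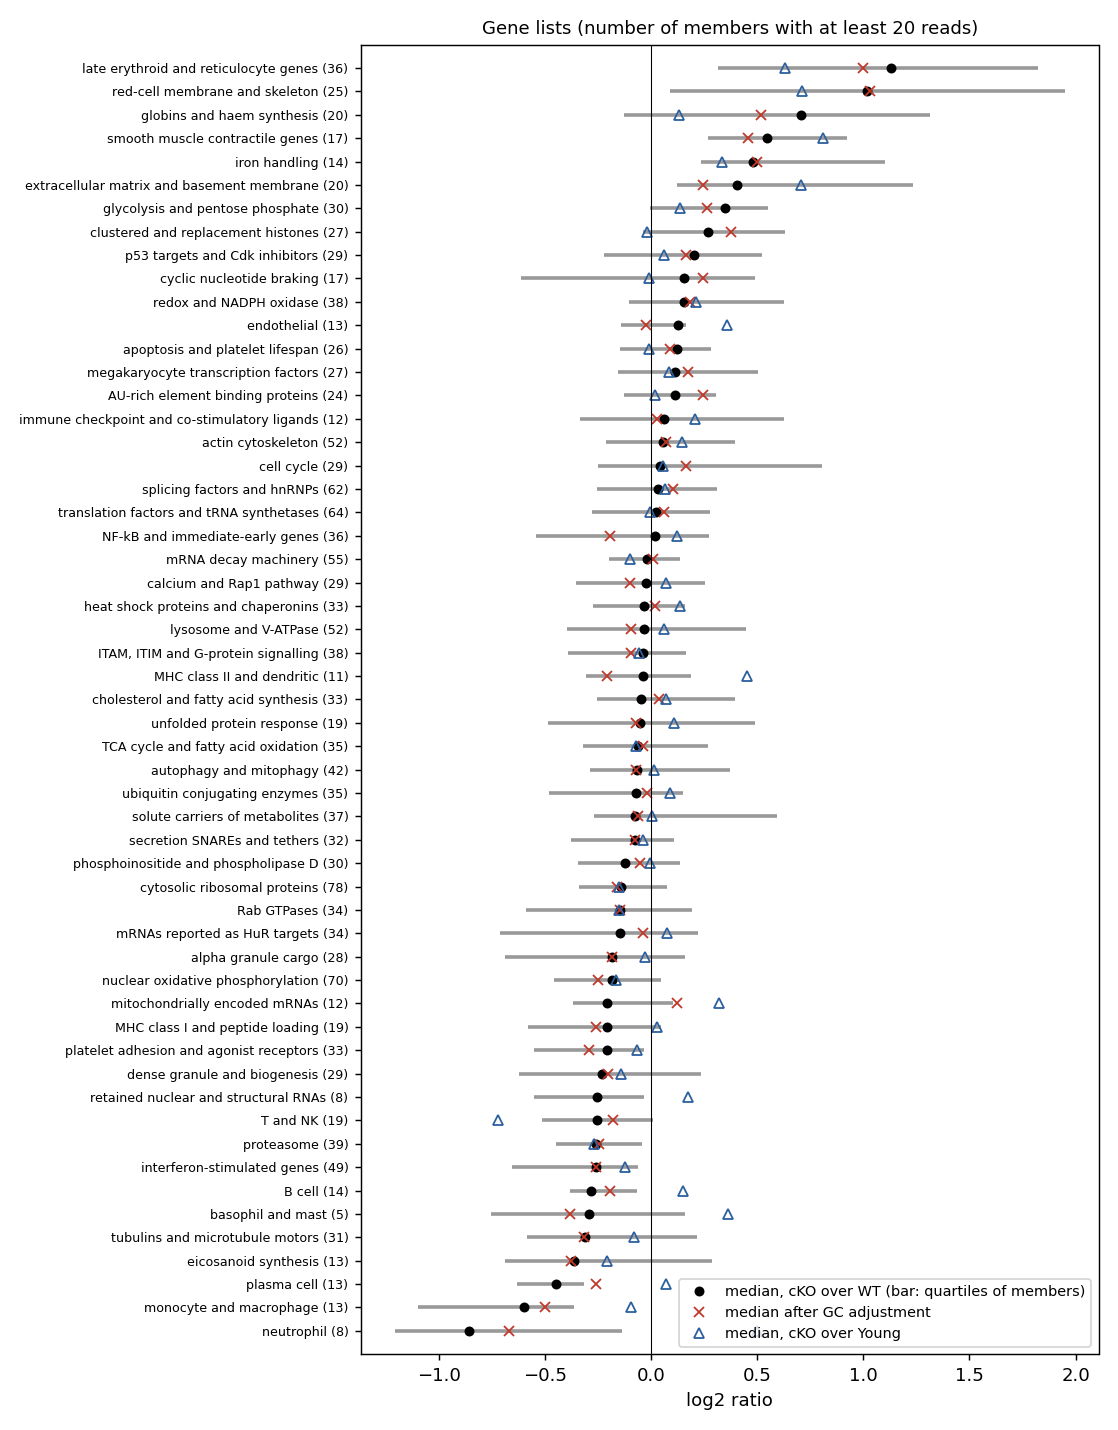
Median log2 ratio of each gene list with at least 5 measured members, sorted, with the number of members in brackets; the bar spans the quartiles of the members. Black points are the library labelled cKO over WT, red crosses the same after GC adjustment, and blue triangles the library labelled cKO over Young. Late erythroid genes (1.13) and red-cell membrane genes (1.02) lie at the top and neutrophil genes (-0.86) at the bottom. Against Young the neutrophil median was 0.50.

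Energy metabolism changed in few genes. Of 24 tested genes of glycolysis and the pentose phosphate pathway Gapdh (uncertain, as given above) and Bpgm rose and Pfkfb3 fell. The median of the list was 0.35 (0.26 after GC adjustment, 0.13 against Young). Bpgm, which makes the oxygen-release regulator of red cells, had 3080 reads in WT against 11775 in the library labelled cKO (Young 8832, Old 5227), belongs to the late erythroid list as well, and did not pass against Young. Pfkfb3, which makes the activator of phosphofructokinase, had 1591, 431, 1504 and 1740 reads and fell 3.76-fold (3.38 to 4.19), with the library labelled cKO far below the others. Of 56 tested nuclear genes of oxidative phosphorylation 1 fell (Atp5e, which did not pass against Young) and 0 rose, and the median was -0.19 (-0.25 after GC adjustment, -0.17 against Young). None of 31 tricarboxylic acid cycle and fatty acid oxidation genes passed. Mitochondrially encoded messages had a median of -0.21, which became 0.12 after GC adjustment and 0.32 against Young, so their direction depends on the reference.

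Lipid signalling gave 3 that fell and 0 that rose. Pld2, a phospholipase D, had 627 reads in WT against 163 in the library labelled cKO (Young 444, Old 586), and fell 3.92-fold (3.29 to 4.68). Hpgd, which inactivates prostaglandins, had 251, 69, 109 and 74 reads; here WT stood apart, and the fall of 3.70-fold (2.83 to 4.91) did not pass against Young. The other gene was Plek. Of 10 tested eicosanoid genes Hpgd alone passed, and of 28 phosphoinositide and phospholipase D genes Pld2 and Plek.

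Few genes of protein production and disposal passed. Of 76 tested cytosolic ribosomal protein genes 0 passed (median -0.14, and -0.15 against Young). Eef2k, the kinase that slows elongation, rose 3.18-fold (2.28 to 4.51) on 152 reads against 47, the sole 1 of 62 translation genes, and did not pass against Young. Proteasome genes had a median of -0.26 (-0.25 after GC adjustment, -0.27 against Young), with 33 of 39 below 1. Psme3, the nuclear proteasome activator, rose 2.54-fold (2.34 to 2.75), from 851 to 2196 reads, the sole 1 of 38 tested to pass; Young had 1407 and it did not pass against it. Pink1, the kinase that marks damaged mitochondria, rose 2.34-fold (2.26 to 2.42), from 4849 to 11537 reads, but passed neither after GC adjustment nor against Young, and Old had 11485. Prdx2, a peroxidase abundant in red cells, rose 3.11-fold and Gss, the last enzyme of glutathione synthesis, 2.41-fold among 35 redox genes. Gss had 348 reads in WT against 854 in the library labelled cKO (Young 338, Old 573); it did not pass after GC adjustment, and Prdx2 did not pass against Young.

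Nuclear programmes were read from the RNA left in platelets. Of 24 tested megakaryocyte transcription factors 0 passed (median 0.11); Gata2 had a ratio of 1.80 and Lmo2 of 2.04. Of 17 tested cell cycle genes 2 rose: Ube2c, a ubiquitin-conjugating enzyme of mitotic exit, from 120 to 486 reads, and Nusap1, a spindle protein, from 147 to 405. Young had 182 and 161 reads of these, and Old 159 and 161, so the library labelled cKO stood apart for both.

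Immune genes were led by 2 interferon-stimulated genes of 33 tested, Rsad2 and Isg15, against a list median of -0.26. Isg15, a ubiquitin-like modifier, had 79 reads in WT against 263 in the library labelled cKO (Young 275, Old 144), so WT was the low library. Cd274 (PD-L1, a checkpoint ligand) had 2005, 518, 1206 and 1392 reads and fell 3.94-fold (3.58 to 4.35), but did not pass against Young. B2m, the light chain of MHC class I, had 445735 reads in WT against 299438 in the library labelled cKO (Young 298567, Old 283208), again with WT apart. None of 10 tested MHC class I genes passed, and their summed ratio was 0.693.

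Other genes among the 15 lowest came from varied functions. Lamp5, a lysosome-associated membrane protein, had 105 reads in WT against 6 in the library labelled cKO (Young 66, Old 136), too few to be called against Young. Ociad2 had 210, 34, 190 and 588, and Mllt3, a chromatin reader of blood stem cells, 2949, 812, 2464 and 2365. Serpinb2, an inhibitor of plasminogen activators, had 455, 117, 440 and 820 reads, and Nrg4, an epidermal growth factor family ligand, 266, 65, 227 and 59. Mllt11 had 143, 30, 118 and 142 and Serpini1, a serpin of neurons, 145, 30, 116 and 45. The library labelled cKO was the lowest in Lamp5, Ociad2, Mllt3 and Serpinb2, while in Nrg4 Old was lower still. Rps27rt fell 3.21-fold but shares 94.1% of its words, and with Rps27 its ratio was 0.575 (0.544 to 0.608); against Young the Rps27rt ratio was 0.840, short of the rule.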

How the data were processed

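Platelet RNA was sequenced in 4 libraries, 1 per group. The submitters' processing notes name build mm10 and, in no order, DESeq2 1.20.0, featureCounts 1.5.0-p3, HISAT2 2.0.5 and CASAVA; the handling of strand and shared reads is not stated there. The authors deposited a signal per gene and library, reads scaled to a common size. The authors' deposited log2 fold change and p-value columns were not used, nor were 4 per-sample columns whose names match no sample. The design assumed counts. Dividing by 1 step per library gave whole reads for 100.0% of values within 0.02 read, and these were used.

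TMM from edgeR 4.0.16 (R 4.3.3) scaled each pair of libraries. Intervals are Clopper-Pearson intervals of the share of a gene's reads in 1 library; they cover counting error only, since PCR copies are not independent molecules. Log2 ratios carry a pseudocount of 0.5 read. mRNA GC content, 3′ UTRs and shared 40-base words come from GENCODE M21, whose exon unions match the deposited gene length for 95.6% of genes. Sizes and calls were tested on simulated data.

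The members, the 56 lists and the naming rule were chosen with earlier results of these data known. The rule names Elavl1 and its neighbours within 1 Mb with at least 100 reads, the 15 protein-coding genes that rose most and the 15 that fell most, by interval bound and without clone names, the 10 largest gains and losses in RPM, the 10 most abundant genes, up to 3 genes per other biotype and up to 6 per list. Genes outside it, among them Actb, Tubb1, Selp, Celf2, Vasp, Prkar2b, Slc6a4, Mylk, Tuba1b, Tuba1c, Rps27 and those named in the last section, were chosen after their values were seen. A few genes that the rule names are not reported here. GC adjustment and the Young reference were added after the data were seen; other scalings, read minimums, bounds and pseudocounts were also tried.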

Additional observations from a re-analysis of the deposited data

How the results depend on the processing

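The intervals cover counting error, and the spread between pools of mice is unknown. No paired analysis was possible because each group has 1 library, and for the same reason no library could be left out and no count test was run. The 158 genes that rose became 307 when the minimum was lowered to 20 reads, 59 when it was raised to 1000, 454 at a bound of 1.5-fold, 20 at 4-fold and 94 after GC adjustment. The 107 that fell became 264, 41, 394, 7 and 67 under the same settings, and 51 against Young. Other library scalings gave 159 to 182 that rose and 95 to 105 that fell and moved the median of all genes by at most 0.0479 (log2). Removing the genes flagged as possibly sharing reads with copies left 137 and 91. The difference between the lowest and highest GC deciles, 0.707 on the log2 scale, became 0.0 after GC adjustment, by construction, and 0.0734 against Young. The difference between the longest and shortest genes, 0.0763, became 0.231 after GC adjustment and reversed to -0.0492 by genomic span. The interquartile range of the genes with most reads, 0.628, became 0.526 after GC adjustment and 0.486 against Young. The median of long intergenic RNAs, -0.08, became 0.14 against Young. An interval over list members is a description and no test, because members share the same libraries and are not independent. For some lists such a 95% interval of the median excluded 0. Among these the medians of histones (-0.0202), B cell (0.15) and plasma cell genes (0.0686) reversed against Young. Hbb-bt (0.804) and Hbb-bs (0.836) also reversed. Lists without such an interval changed sign too, among them neutrophil genes, from -0.86 (-5.96 to 0.56) to 0.50. Beside Hbb-bt and Hbb-bs, 48 named genes lost their call against Young. Another 7 without a call changed status there, by gaining a call or by falling under the read minimum. After GC adjustment 13 named genes lost and 4 gained a call. The cause of these shifts was not tested.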

Other observations

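Imprinted genes, expressed from 1 parental copy, appeared among the genes with most reads that changed. They were picked after their values were seen and were not tested as a group. Mest, a paternally expressed hydrolase gene, had 4881 reads in WT against 13486 in the library labelled cKO (Young 4759, Old 3504). Peg10, a paternally expressed gene of retrotransposon origin, had 18998, 44362, 19266 and 12426 reads. Both rose, by 2.71-fold (2.63 to 2.81) and 2.29-fold (2.26 to 2.33), and both passed after GC adjustment and against Young, whereas the noncoding Peg13 fell. Lgalsl, a galectin-like gene, had 21666, 8111, 24086 and 15786 reads and fell 2.72-fold (2.65 to 2.79). Dennd5a, an exchange factor for Rab GTPases, had 5912, 14071, 6609 and 8431 reads and rose 2.34-fold (2.27 to 2.41). Both also passed after GC adjustment and against Young.

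The long intergenic RNA Gm42601 had 61 reads in WT and 193 in the library labelled cKO, but 4 in Young and 6 in Old. The littermate pair thus had more Gm42601 reads than the other pair.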
